A study of Mus musculus with 61 samples.

Results

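Skeletal muscle RNA of the inbred mouse strains labelled Cast and PWK was set against that of 6 other inbred strains, WSB, AJ, B6, 129, NOD and NZO. The members were chosen by the strain name in the sample titles, which gave 14 of the 61 libraries of the series, 7 of Cast and 7 of PWK. The other 47 libraries came from WSB, AJ, B6, 129 and NZO with 8 each and NOD with 7. Each strain counted equally in the comparison, so the mean of Cast and PWK was set against the mean of the 6 strains, with strain levels averaged on the log scale. A gene counted as higher or lower only if Cast and PWK each lay on the same side of the 6. All 61 libraries shared 1 treatment, a diet rich in fat and sugar with a label of 45 percent fat, and no group on another diet was analysed here. The labels gave the tissue but no muscle name, age or sex. They do not state that each library is a different mouse, and p-values over libraries then measure the spread between libraries alone, which may be technical in part. Libraries with over 50 CPM of Xist, a transcript of female cells, made up 7 of the 14 and 24 of the 47, and libraries with over 50 CPM of the Y-linked gene Ddx3y made up 7 of the 14 and 23 of the 47.

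The house mouse has several subspecies. Cast is the usual short name of a wild-derived strain of Mus musculus castaneus, and PWK that of a wild-derived strain of Mus musculus musculus. WSB is wild-derived too, but of Mus musculus domesticus, the subspecies that gave most of the genome of the classical laboratory strains AJ, B6, 129, NOD and NZO. Skeletal muscle is made of contractile fibres, with blood vessels, connective tissue, nerve, immune cells and fat between them. Castaneus and musculus are each represented by a single inbred strain here, and each inbred strain is 1 genotype, so a difference that Cast and PWK share cannot be told apart from one between the pair of genotypes and these 6.

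Total counts ran from 17057111 to 46775390 in the Cast and PWK libraries and from 19233666 to 65153255 in the other 47. Levels are given in CPM, counts per 1000000 of the library total after TMM adjustment, a method that sets libraries to a common composition. The defining skeletal muscle genes (Acta1, Ckm, Mb, Des, Ttn, Neb, Myh4 and Tnnt3) summed to between 109500 and 183400 CPM in the 14 libraries and to between 108700 and 222500 CPM in the 47. In B6 replicate 5, a ribosomal RNA gene took 46.3% of the counts, against at most 9.76% in any other library.

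Among 16682 genes with enough counts to test, 9793 (58.7%) differed between Cast with PWK and the 6 strains at an adjusted p under 0.05 (edgeR quasi-likelihood test over 61 libraries, Benjamini-Hochberg adjustment). The direction was shared by Cast and PWK for 7782 of them (46.6% of the genes tested), of which 4201 (25.2%) were higher and 3581 (21.5%) lower than in the 6 strains, and it was split for 2011. Both strains also passed their own tests against the 6 for 3392 genes (20.3%), 1715 higher (10.3%) and 1677 lower (10.1%). The shared differences were mostly moderate, with a median size of 0.48 on the log2 scale, and 990 higher and 752 lower genes reached 1 log2 unit, a doubling. The median over all genes tested was 0.03. In 66 genes (0.396%) every one of the 14 libraries lay above all 47, and in 92 (0.551%) every one lay below. When the spread between strains instead of that between libraries was taken as the error, in a limma test on 8 strain means, 801 genes passed (4.8%), 359 higher (2.15%) and 442 lower (2.65%), and 3998 had an unadjusted p under 0.05. In the rest of the text, "passed" refers to the test over libraries with the direction shared, and the test on 8 strain means is called the strain-level test.

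**Figure D1:**
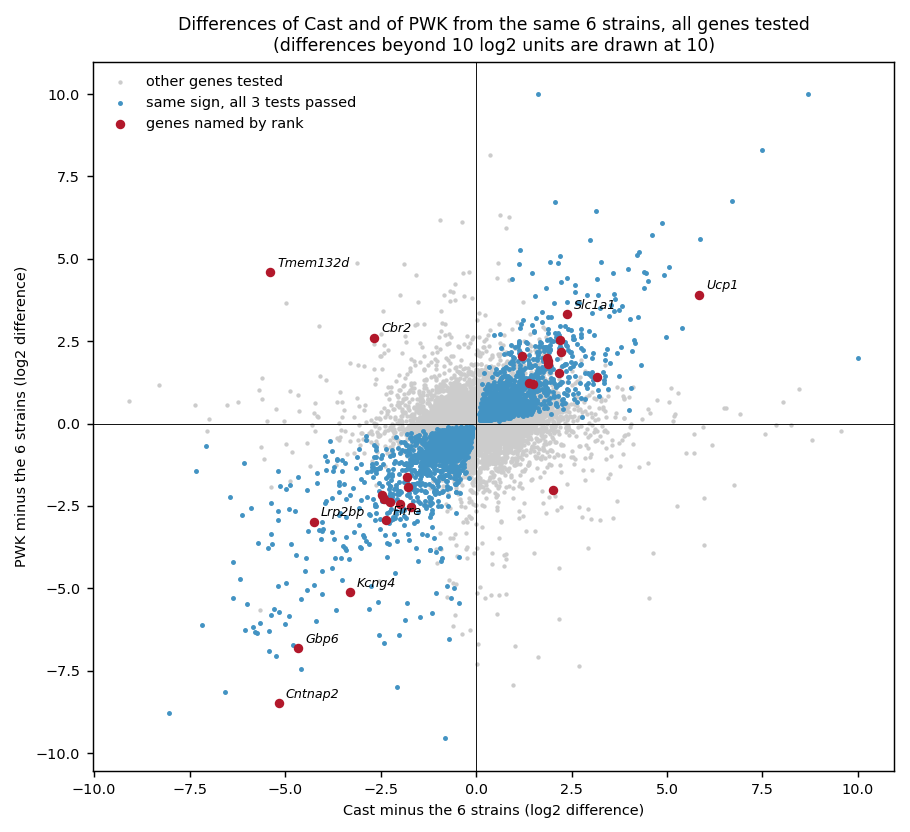
Each point is 1 of 16682 genes, with the log2 difference of Cast from the mean of the 6 strains on the horizontal axis and that of PWK on the vertical axis. The 3392 blue points passed with a shared direction and in both strains' own tests, and red points are the genes named by rank, of which Tmem132d, Cbr2 and Napb lie in the quadrants of opposite sign. Both axes use the same 6 strains, so the points are tied to each other by construction, and differences beyond 10 are drawn at 10.

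The genes described first were ranked by the smaller of the Cast and PWK differences, after leaving out genes with a near-identical copy elsewhere. The higher side held genes raised in every library or nearly so, and genes of brown fat or skin that varied widely between libraries of a strain. The rest, Gstm7, Ush1c, Adamts8 and Cd276, overlapped in part with the 47 other libraries. Slc1a1, a transporter of glutamate and aspartate on chromosome 19 (chr19:28835049-28913960, GRCm38), was the clearest of the first kind. Its level ran from 7.37 to 33.8 CPM in Cast (median 15.4) and from 21.1 to 51.8 CPM in PWK (median 30.2), against 1.43 to 6.55 CPM in the 47 other libraries (median 3.09). All 14 libraries lay above all 47, the difference was 2.85 on the log2 scale (SE 0.12, adjusted p 3.24e-29), and PWK was higher than Cast (Cast minus PWK -0.94, adjusted p 0.000385).

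Tmem52, a membrane protein gene, behaved alike, at 84.7 to 119.9 CPM in Cast (median 104.5), 64.9 to 107 CPM in PWK (median 81.2) and 14.7 to 60.8 CPM in the 6 strains (median 36), with a log2 difference of 1.34 (SE 0.11). Its 14 libraries did not overlap the 47. Sfi1, a centrin-binding protein of the centrosome, reached 22.9 to 50.7 CPM in Cast and 33.4 to 54.1 CPM in PWK against 6.77 to 23.7 CPM elsewhere, and 13 of the 14 libraries lay above all 47. Its difference was 1.89 (SE 0.07), and WSB, at a mean of 16.3 CPM, was the highest of the 6. Ppp1r1a encodes an inhibitor of protein phosphatase 1. Its medians were 62 CPM in Cast, 112 CPM in PWK and 25.1 CPM in the 6, and 12 of the 14 libraries lay above all 47 (log2 difference 1.62, SE 0.10).

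Gstm7, a glutathione transferase, separated Cast and PWK from 5 of the 6 strains only. Its mean was 14.2 CPM in Cast and 13.7 CPM in PWK, between 2.08 and 2.58 CPM in WSB, AJ, B6, 129 and NOD, but 11.8 CPM in NZO. The log2 difference of 2.19 (SE 0.14) passed over libraries and not at the strain level (adjusted p 0.0787). Ush1c, the scaffold protein harmonin, had medians of 16.1 CPM in Cast, 11 CPM in PWK and 3.69 CPM in the 6, where WSB was lowest with a mean of 0.775 CPM and AJ highest with 8.35 CPM. Its difference of 1.84 did not pass at the strain level either (adjusted p 0.259). Cast replicates 1, 5 and 6 were at 5.1, 4.5 and 3.3 CPM, below that AJ mean. Adamts8, a secreted metalloprotease, and Cd276, a member of the B7 family of immune checkpoint proteins, were higher by 1.85 (SE 0.24) and 1.30 (SE 0.14), with 6 and 10 of the 14 libraries above all 47.

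Ucp1, Cidea, Dmkn and Krt10 had large mean differences and overlapping libraries. In bulk tissue, more cells of a type and more RNA per cell cannot be told apart. Ucp1 is the uncoupling protein of brown fat. It ran from 0.406 to 122 CPM in Cast (median 28.7), from 0 to 34.5 CPM in PWK (median 0.583) and from 0 to 360 CPM in the 6 strains (median 0.205), where the mean of WSB, 114 CPM, was above those of Cast (36.4 CPM) and PWK (9.72 CPM). The log2 difference was 4.88 (SE 0.60, adjusted p 4.21e-10). An edgeR fit of 14 against 47 libraries without strain terms gave 0.19 (adjusted p 0.894). That fit averages levels over pooled libraries, where high WSB libraries weigh much, while the main contrast averages log levels of strains. With the summed fat markers as covariates the difference was 2.03 (adjusted p 0.00797). Ucp1 is part of those sums, so a fall was built in. Cidea, a lipid droplet protein of brown fat, had a difference of 2.29 (SE 0.29) and was likewise highest in WSB, at 24.5 CPM against 15.7 CPM in Cast and 4.76 CPM in PWK. Its difference was 1.00 (adjusted p 0.161) in the fit without strain terms. It was 0.81 (adjusted p 0.0157) with the fat marker sums, which include Cidea, as covariates. The epidermal genes Dmkn and Krt10 had differences of 2.38 (SE 0.75) and 1.93 (SE 0.62), but their medians were 0.314 and 1.18 CPM in Cast, 0.151 and 1.62 CPM in PWK, and 0.211 and 1.36 CPM in the 6. Without Cast replicate 8, which held 61.9 CPM of Dmkn and 163.5 CPM of Krt10, the differences were 0.05 (adjusted p 0.965) and -0.38 (adjusted p 0.656).

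The lower side was led by genes that were near silent in Cast and PWK, while others, such as Itga4, Cdh4 and Golm1, were lower but still present. Cntnap2, a cell adhesion protein of the neurexin family (chr6:45059357-47304213), ran from 0.0835 to 0.516 CPM in Cast, from 0 to 0.0617 CPM in PWK and from 3.62 to 27.6 CPM in the 47 other libraries. No library of the 14 reached the range of the 47, and the log2 difference was -6.83 (SE 0.23, adjusted p 5.69e-33). It was larger in PWK (-8.48) than in Cast (-5.17). Gbp6 (ENSMUSG00000079362), an interferon-induced guanylate-binding protein gene, had a median of 0 CPM in Cast and in PWK and of 5.8 CPM in the 6, with a difference of -5.74 (SE 0.50) and 12 of the 14 libraries below all 47. Its annotated span overlaps Gbp10 and another Gbp6 record on the same strand, so reads could be assigned to either.

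Firre, a long noncoding RNA of the X chromosome that takes part in chromosome organisation, ran from 2.89 to 5.31 CPM in Cast, from 1.98 to 3.10 CPM in PWK and from 15.3 to 24 CPM elsewhere. The strain means of the 6 lay close together, between 17.97 and 22.28 CPM, and Firre had the smallest adjusted p at the strain level among the genes named by rank (3.27e-05). Col7a1, the collagen of anchoring fibrils, was at 2.51 to 4.40 CPM in Cast and 1.91 to 6.30 CPM in PWK against 9.76 to 35.1 CPM in the 6, a log2 difference of -2.32 (SE 0.15). Otub2, a deubiquitinase, and Golm1, a Golgi membrane protein, were lower by -2.34 (SE 0.13) and -1.71 (SE 0.14), and for both all 14 libraries lay below all 47.

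Dkk3, a secreted glycoprotein related to Wnt inhibitors, Itga4, the alpha4 integrin subunit of leukocytes, and Stab2, a scavenger receptor for hyaluronan, were lower by -2.22 (SE 0.24), -1.84 (SE 0.21) and -2.11 (SE 0.26). For them 11, 11 and 10 of the 14 libraries lay below all 47. Cdh4, which encodes R-cadherin, was at medians of 4.72 CPM in Cast, 7.06 CPM in PWK and 22.2 CPM in the 6, and its range among the 6 was wide, from a mean of 13.8 CPM in B6 to 211 CPM in WSB. Kcng4, a modifier subunit of voltage-gated potassium channels, and Lrp2bp, a protein that binds the receptor megalin, had differences of -4.21 (SE 0.29) and -3.61 (SE 0.20). Both were also low in WSB, at 1.53 and 0.392 CPM, against strain means from 18.9 to 44.4 CPM and from 8.29 to 20.1 CPM in the 5 classical strains.

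Of the 24 genes, 15 also passed the strain-level test, 6 of the higher and 9 of the lower. An annotated gene lay on the opposite strand within 13 of them and on the same strand within 4. Whether the authors counted reads by strand is not given in the sources used here, so reads of such neighbours may not be separate. Reads of Cast and PWK may also align less well to the reference build, GRCm38, and this was not tested.

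**Figure D2:**
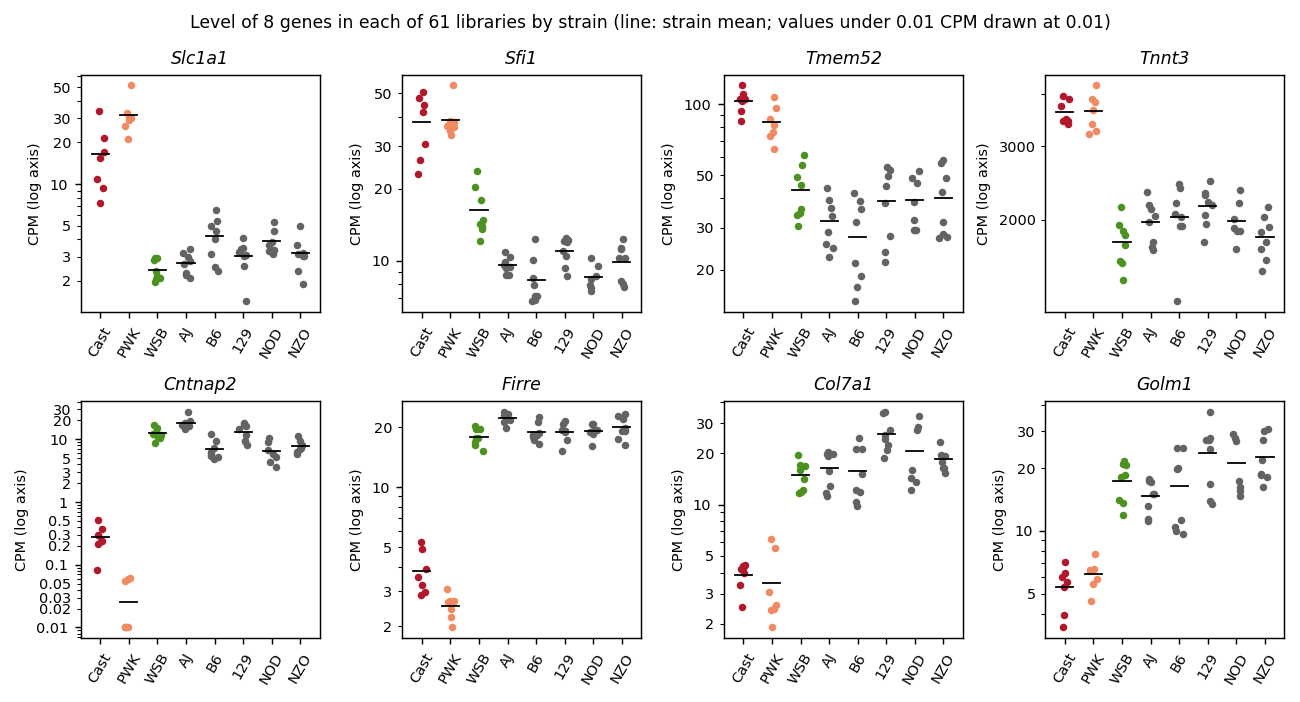
Level in CPM on a log axis of 8 genes in each of 61 libraries, grouped by strain, with a line at the strain mean. For Slc1a1, Tmem52 and Tnnt3 all 14 Cast and PWK libraries lie above the other 47, for Sfi1 13 of 14 do, and for Cntnap2, Firre, Col7a1 and Golm1 all 14 lie below.

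WSB is the member of the 6 that shares wild-derived origin with Cast and PWK, so it was also set against each side. Between Cast with PWK and WSB, 7731 of 16682 genes (46.3%) passed, and between WSB and the 5 classical strains 6394 (38.3%) did. Of the 24 genes named by rank, 18 differed between Cast with PWK and WSB in the same direction as against the 6, 2 (Ucp1 and Cidea) in the other direction, and 4 (Dmkn, Krt10, Kcng4 and Lrp2bp) did not pass. The difference of Kcng4 from WSB was -0.68 (adjusted p 0.111) and that of Lrp2bp 0.35 (adjusted p 0.321), while WSB differed from the 5 classical strains by -4.24 and -4.75. Slc1a1, Firre and Cntnap2 showed the other pattern: WSB differed from the classical strains by -0.47, -0.14 and 0.36, and Cast with PWK differed from WSB by 3.24, -2.53 and -7.13. These comparisons share libraries, so their values stand side by side and do not support each other.

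Cast and PWK also differed from each other. A direct test gave 8522 of 16682 genes (51.1%), and Cast differed from the 6 strains in 10466 genes (62.7%) and PWK in 6961 (41.7%). The 3 genes with the largest differences of opposite sign were Tmem132d, Cbr2 and Napb. Tmem132d, a transmembrane protein gene, was at 0 to 0.0369 CPM in Cast and 10.2 to 16.1 CPM in PWK, and among the 6 it split as well, with means of 18.3 CPM in NOD, 8.93 CPM in WSB and at most 0.468 CPM in the other 4. Cbr2, a carbonyl reductase, ran from 0.588 to 3.16 CPM in Cast, from 3.33 to 20 CPM in the 6 and from 49.6 to 88 CPM in PWK, so that all 7 libraries of each strain lay outside the range of the 47, on opposite sides. Napb, which encodes beta-SNAP, a protein of vesicle fusion, was at 3.36 to 4.54 CPM in PWK and 6.58 to 25.2 CPM in the 6, and spread from 11.1 to 205.5 CPM in Cast. The Cast difference of Napb was 2.02, and 0.23 (adjusted p 0.147) without Cast replicates 1, 5 and 6, which stood apart in the metallothioneins as well.

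Genes with near-identical copies needed separate treatment, since a read that matches more than 1 copy can be assigned to any of them. Among 125 genes that passed with both strains' own tests, a mean of at least 5 CPM and at least 1 log2 unit in both strains, 48 (38.4%) had a copy in the table with at least 95% identity over at least 200 bases. After gene and copies were summed, the difference was under 0.5 log2 units for 32 of the 48 and at least 1 for 6. The genes in the next paragraphs were chosen after their values were seen.

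Mrpl23, a protein of the mitochondrial ribosome (chr7:142532799-142540747), was at 22.9 to 31.5 CPM in the 14 libraries and at 0.789 to 4.59 CPM in the 47. Its pseudogene Mrpl23-ps1 (chr2:74591330-74591909) had the mirror pattern, with 0 to 3.1 CPM in Cast, 0 to 1.01 CPM in PWK and 16.1 to 29.4 CPM in the 6. The differences were 3.71 and -5.45, and the sum of both genes differed by 0.07 (SE 0.04, adjusted p 0.133). The pair is shown because these transcripts are identical over their aligned part. The first 60 bases of the coding sequence, from the GENCODE M21 transcripts of GRCm38, follow with the start codon in capitals.
Mrpl23: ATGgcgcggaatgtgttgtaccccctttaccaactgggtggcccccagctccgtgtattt
Mrpl23-ps1: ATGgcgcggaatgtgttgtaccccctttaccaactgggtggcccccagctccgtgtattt

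The same exchange between a gene and a copy of it was seen for Atp5g2, a subunit of ATP synthase, Fau, a ubiquitin-like ribosomal fusion protein, and Sec61g, a subunit of the protein channel of the endoplasmic reticulum. Atp5g2 was at means of 116 CPM in Cast and 107 CPM in PWK, and among the 6 it was at 100.5 CPM in AJ and 119.4 CPM in NOD but at most 7.37 CPM in the other 4, which had 95.4 to 109.7 CPM of its copy Gm10175. Its difference went from 2.69 alone to 0.04 with the copy. Fau went from 2.07 to 0.42 with Gm9843 and Sec61g from 1.66 to 0.27 with Gm10177. Amd2, of polyamine synthesis, went from 5.48 to -0.01 (adjusted p 0.992) with its copies. Gbp10, a guanylate-binding protein, was an exception. It was at 0 to 1.55 CPM in the 14 libraries and 5.95 to 74 CPM in the 47, and its difference of -5.73 was still -4.01 (adjusted p 2.07e-23) with its copy added.

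An exchange at far higher levels was seen in the mitochondrial genome, whose genes encode core subunits of the respiratory chain and have copies in nuclear DNA. mt-Co2, subunit 2 of cytochrome c oxidase (chrM:7013-7696), ran from 10.04 to 157 CPM in Cast, from 27.4 to 81.1 CPM in PWK and from 2945 to 5938 CPM in the 47, a log2 difference of -6.16 (SE 0.25, adjusted p 1.59e-29). Its nuclear copy Gm28661 (chr1:24614885-24615565), identical over 681 bases, held most of these reads in every strain, with means of 6943 CPM in Cast, 8593 CPM in PWK and 5918 to 7187 CPM in the 6. A second copy, Gm13341 (chr2:22587291-22587962), which differs at 16 of 672 bases, was at 1144 to 3198 CPM in Cast but at most 3.89 CPM in PWK and 5.02 CPM in the 6. The sum of the 3 differed by -0.24 (SE 0.07, adjusted p 0.00142). The first 100 bases of each follow, with capitals at the bases where they differ.
mt-Co2: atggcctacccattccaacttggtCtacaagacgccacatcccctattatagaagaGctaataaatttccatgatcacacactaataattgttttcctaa
Gm28661: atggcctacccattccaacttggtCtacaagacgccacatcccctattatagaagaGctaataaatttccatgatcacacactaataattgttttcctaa
Gm13341: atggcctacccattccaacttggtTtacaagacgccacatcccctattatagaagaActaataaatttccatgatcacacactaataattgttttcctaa

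PWK had an exchange of its own. mt-Nd4l, a subunit of complex I, was at 21.2 to 38.7 CPM in PWK, 730 to 1196 CPM in Cast and 832 to 1894 CPM in the 6, and its copy Gm10222 was at 1461 to 1809 CPM in PWK against 192 to 844 CPM in all other libraries. Gm13339, a copy of part of mt-Nd2, was at 534 to 1008 CPM in PWK and at most 5.89 CPM elsewhere. With copies summed, mt-Nd4l differed by -0.23 (SE 0.07). Of the 13 protein-coding mitochondrial genes, 5 passed as lower and 0 as higher, against 21.5% lower and 25.2% higher among all genes tested, with a median of -0.15, and mt-Nd1, for which no copy was found, was lower by -0.21 (SE 0.06). Whether these exchanges follow from how reads were aligned to the reference or from the genomes of the strains was not tested.

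**Figure D3:**
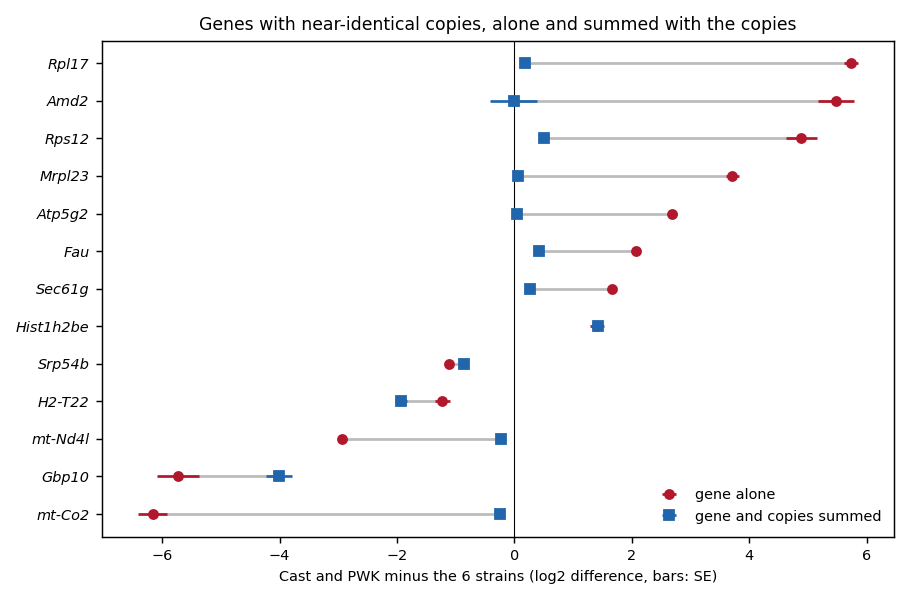
Log2 difference of Cast with PWK from the 6 strains, with its SE, for 13 genes with near-identical copies, alone (red circles) and after the counts of gene and copies were summed (blue squares). mt-Co2 moves from -6.16 to -0.24 and Mrpl23 from 3.71 to 0.07, while Gbp10 stays at -4.01.

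In the lists of known genes that follow, the shares to compare with are those of all genes tested, 25.2% higher and 21.5% lower, with a median of 0.03. The contractile genes moved both ways. Of 17 genes of fast fibres 4 were higher and 4 lower (median -0.07), and of 18 genes of slow fibres 4 were higher and 1 lower (median 0.14). Tnnt3, fast troponin T, which ties troponin to the thin filament, stood out among them. It ran from 3380 to 3951 CPM in Cast, from 3210 to 4188 CPM in PWK and from 1281 to 2475 CPM in the 6. All 14 libraries lay above all 47, with a difference of 0.89 (SE 0.05, adjusted p 3.87e-22) that also passed at the strain level (adjusted p 0.0047). Myh1, the myosin heavy chain of type IIx fibres, was higher by 0.50 (SE 0.07), with 7 of the 14 libraries above all 47.

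The calsarcins, Z-disc proteins that bind calcineurin, went in opposite directions. Myoz2, the slow-fibre form, had medians of 282 CPM in Cast, 206 CPM in PWK and 108 CPM in the 6 (difference 1.15, SE 0.08). Myoz3, the form of fast fibres, had medians of 18.4, 26.1 and 43.9 CPM (difference -1.15, SE 0.08), with 13 of the 14 libraries below all 47. Both passed at the strain level. Hspb7, a small heat shock protein of muscle, was higher by 0.80 (SE 0.13), and by 0.48 without Cast replicates 1, 5 and 6.

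Among 17 genes that couple excitation to calcium release, 2 were higher and 8 lower, none at the strain level (median -0.10). Trdn, the triadin of the release complex, was lower by -0.49 (SE 0.05), Jph1, which joins the membranes of the triad, by -0.35 (SE 0.05), and Cacna1s, the voltage sensor, by -0.30 (SE 0.04). The calcium release channel partner Fkbp1a was higher by 0.19 (SE 0.03). For Trdn the WSB mean of 612 CPM lay with Cast (656 CPM) and PWK (586 CPM), below the 886 to 964 CPM of the classical strains. Of 15 genes of muscle development and regeneration, 8 were higher and 3 lower. The median of 0.48 was 0.28 without Cast replicates 1, 5 and 6, and that of PWK alone was 0.08. The myogenic factors Myog, which drives differentiation of myoblasts, and Myf6, the main one of adult fibres, were higher by 1.29 (SE 0.21) and 0.60 (SE 0.11), and Chrna1, a subunit of the acetylcholine receptor, was lower by -0.60 (SE 0.11). Myog overlapped between the groups, at 6.77 to 40.4 CPM in the 14 libraries and 1.74 to 25.5 CPM in the 47.

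Of 75 nuclear genes of the respiratory chain 37 were higher (49.3%) and 4 lower (5.33%), with a small median of 0.11, and 4 were higher at the strain level. Cox7a2, a subunit of cytochrome c oxidase, had medians of 133 CPM in Cast, 115 CPM in PWK and 89.8 CPM in the 6, and all 14 libraries lay above all 47 (difference 0.45, SE 0.04). The complex I subunits Ndufb2 and Ndufa8 were higher by 0.42 (SE 0.05) and 0.34 (SE 0.04), and Ndufc2 was lower by -0.25 (SE 0.05). The 37 became 25 with fat marker sums as covariates, beside 7 lower. The brown fat sum includes Cox8b and Cox7a1, respiratory chain subunits that muscle also expresses, so part of this fall may have been built in. In B6, with at most 0.0565 CPM of Ucp1, that sum still had a median of 212.7 CPM. Leaving out Cast replicates 1 and 3 and WSB replicate 5, which were high in liver genes, gave 26 higher and 7 lower (median 0.07). In WSB, 30 of the 75 were higher than in the 5 classical strains and 6 lower. Among all genes tested 21.2% were higher and 17.1% lower in that comparison. In the breakdown of branched-chain amino acids 5 of 20 genes were higher (25.0%), a share near that of all genes, and 1 lower. The median was 0.20, and 0.11 without Cast replicates 1, 5 and 6. It was 0.43 for Cast and -0.02 for PWK. WSB was higher than the 5 classical strains in 9 of the 20 and lower in 0. Mccc2, of leucine breakdown, was higher by 0.70 (SE 0.06) and Mut, the methylmalonyl-CoA mutase, by 0.50 (SE 0.05).

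Of 29 genes of insulin signalling 7 were higher and 5 lower, a split near that of all genes. The median of 0.23 became -0.03 without Cast replicates 1, 5 and 6, with the same counts, and PWK alone had a median of -0.06. Its members at the ends were Foxo1, a transcription factor that insulin restrains, Pik3r1, the regulatory subunit of PI 3-kinase, and Akt1, a kinase downstream of it, at 1.76 (SE 0.17), 1.12 (SE 0.15) and 0.54 (SE 0.06), and Grb14, an inhibitor of the insulin receptor, at -1.27 (SE 0.13). Grb14 had medians of 7.82 CPM in Cast, 8.68 CPM in PWK and 18.2 CPM in the 6, and its WSB mean of 31.8 CPM was the highest. All 4 also passed at the strain level. In Cast, Foxo1 was at 267, 449 and 484 CPM in replicates 1, 5 and 6 and at 34.7 to 131 CPM in the other 4, and Pik3r1 at 111, 474 and 197 CPM against 55.2 to 67.3 CPM.

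The same 3 Cast libraries stood apart in the metallothioneins, metal-binding proteins induced by metals and glucocorticoids, which were chosen after their values were seen. Mt1 was at 309, 415 and 529 CPM and Mt2 at 206, 453 and 460 CPM in Cast replicates 1, 5 and 6, while Mt1 was at most 47.9 CPM in any other library. Without them, Foxo1 was higher by 1.08 (adjusted p 9.46e-09) and Pik3r1 by 0.49 (adjusted p 6.98e-05). Of 18 circadian clock genes 8 were higher and 2 lower with all libraries, and 0 were higher and 2 lower without these 3 (edgeR quasi-likelihood test), the median going from 0.19 to 0.03. What set these libraries apart was not tested, and the time of tissue collection is not given in the labels. Of 19 genes of protein breakdown 7 were higher and 0 lower (median 0.46), and 7 were higher and 4 lower (median 0.11) without these 3 libraries. The median of PWK alone was -0.08. Among them Map1lc3a, an autophagy protein, ran from 74.4 to 119 CPM in the 14 libraries and from 37.7 to 83.5 CPM in the 47, a difference of 0.71 (SE 0.06) that also passed at the strain level.

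Genes of fatty acid and triglyceride synthesis were higher in 10 of 21 cases and lower in 3 (median 0.43), none at the strain level. In the strains' own tests 10 were higher and 3 lower in Cast (median 0.53), and 3 higher and 3 lower in PWK (median 0.14). WSB was higher than the 5 classical strains in 15 of the 21 and lower in 0 (median 0.60). Lpin1, a phosphatidate phosphatase, had a difference of 0.69 (SE 0.07), with medians of 693 CPM in Cast, 421 CPM in PWK and 359 CPM in the 6. The markers of white fat summed to medians of 1483 CPM in Cast, 932 CPM in PWK, 1402 CPM in WSB and 888 CPM over the 6. With the fat marker sums as covariates 2 of the 21 were higher and 4 lower. Without the libraries high in liver genes 6 were higher and 3 lower (median 0.08).

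**Figure D4:**
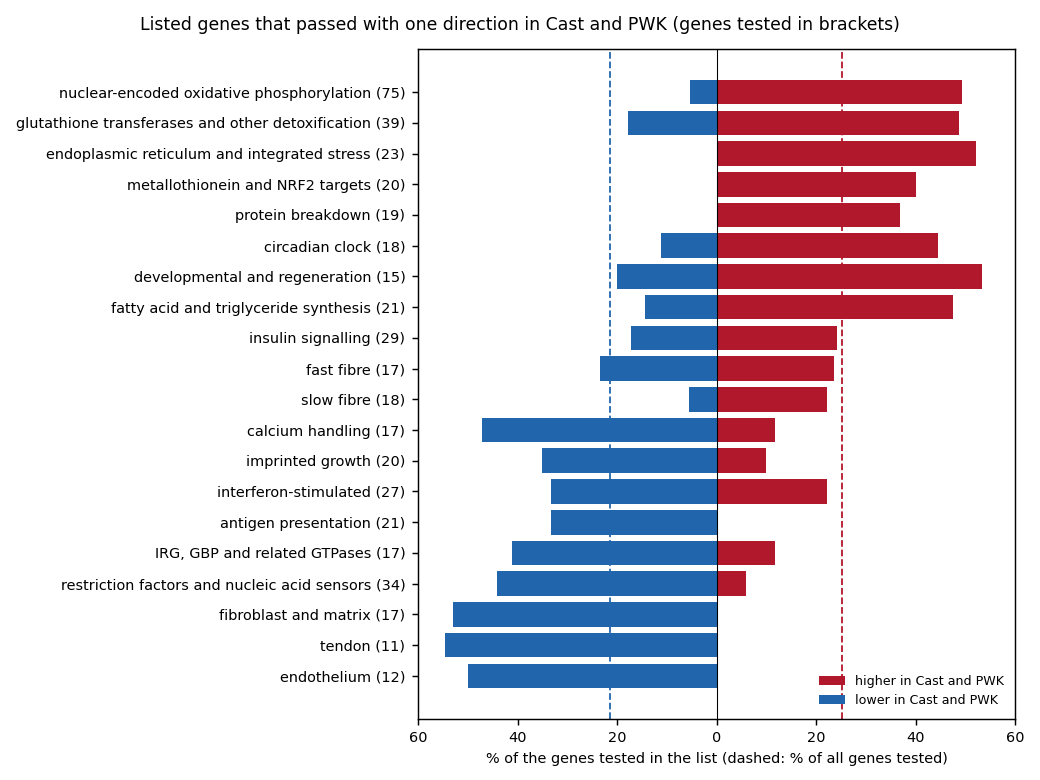
Share of the genes tested in each of 20 lists that passed as higher (red, to the right) or lower (blue, to the left) in Cast and PWK, with dashed lines at the shares of all genes tested, 25.2% and 21.5%. Lists were chosen with earlier results of these data known, and no test of a list was made.

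When unfolded proteins build up in the endoplasmic reticulum, sensors in its membrane switch on chaperones through the factors ATF6 and XBP1, and slow translation through ATF4. Of 23 genes of this response 12 were higher and 0 lower (median 0.30, 1 at the strain level). Xbp1 ran from 60.3 to 119 CPM in the 14 libraries and from 37.0 to 92.8 CPM in the 47 (difference 0.58, SE 0.09, strain-level adjusted p 0.0284). The chaperones were raised less: Pdia6, a disulfide isomerase, by 0.34 (SE 0.06) and Hspa5, the luminal HSP70, by 0.30 (SE 0.05). Both were close to WSB, from which Cast with PWK differed by -0.09 (adjusted p 0.439) and 0.03 (adjusted p 0.818). The promoters are shown for the element through which ATF6 is known to act, searched as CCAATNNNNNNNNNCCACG on both strands from 250 bases before to 50 after the start sites in RefSeq (GRCm38.p6). It was found for 7 of the 21 listed genes with a promoter in the table (33.3%) and for 22 of 11646 tested genes (0.189%). These shares come from the reference sequence and the choice of the list, and are not a result about Cast and PWK. The listed genes with a match included Canx and Dnajc3, named after their values were seen, whose differences were -0.07 and -0.05. The largest difference with a match was 0.34, in Pdia6. Without a match the differences ran from -0.47 in Psat1 to 1.07 in Asns, named on the same terms. A match is a description of the sequence and not a binding site. The fixed ends of the element are in capitals.
Hspa5, chr2:34772015-34772053, plus strand: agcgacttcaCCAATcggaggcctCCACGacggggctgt
Pdia6, chr12:17266481-17266519, plus strand: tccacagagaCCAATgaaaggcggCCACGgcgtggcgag

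In the list of metallothioneins and targets of the antioxidant factor NRF2, 8 of 20 genes were higher and 0 lower (median 0.35). The median was 0.61 for Cast and 0.14 for PWK, and without Cast replicates 1, 5 and 6 it was 0.09, with 7 genes higher and 1 lower. Gpx1, a selenium-dependent peroxidase, had medians of 46.6 CPM in Cast, 69.85 CPM in PWK and 40.7 CPM in the 6, and its strain means among the 6 lay between 41.44 and 44.55 CPM (difference 0.67, SE 0.11, strain-level adjusted p 0.00826). Gclc, the catalytic subunit for glutathione synthesis, was higher by 0.71 (SE 0.10), more in Cast (1.10) than in PWK (0.33). Among 39 glutathione transferases and other detoxifying enzymes 19 were higher and 7 lower (median 0.48), and 2 passed each way at the strain level. Beside Gstm7, the carboxylesterase Ces1d was higher by 1.37 (SE 0.18) and Aldh1a1, a retinaldehyde dehydrogenase, by 0.79 (SE 0.09), both also high in WSB, which differed from the 5 classical strains by 1.71 and 0.82. The 19 became 13 without the libraries high in liver genes and 11 with fat marker sums as covariates.

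The paraoxonases, lactonases that neighbour each other on chromosome 6, were lower, each more in a different strain. Pon2 was at 3.22 to 6.53 CPM in Cast and 21.9 to 25.4 CPM in PWK against 23.9 to 52.2 CPM in the 6 (difference -1.91, SE 0.05). Pon3 was at 6.01 to 18.3 CPM in Cast and 3.17 to 7.83 CPM in PWK against 7.95 to 38.1 CPM in the 6 (difference -1.48, SE 0.10), and the WSB mean of 10.6 CPM lay between those of Cast (12.9 CPM) and PWK (5.78 CPM), below the 25.8 to 31.8 CPM of the classical strains. Nqo2, a quinone reductase, was lower by -0.92 (SE 0.10), with 12 of the 14 libraries below all 47 as for Pon2.

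Restriction factors and sensors of foreign nucleic acid were lower in 15 of 34 cases and higher in 2 (median -0.27), of which 1, a higher gene, passed at the strain level. Ifi203, an interferon-induced DNA-binding protein, was lower by -0.94 (SE 0.13), Samhd1, which depletes nucleotides that viruses need, by -0.39 (SE 0.09), and Slfn5, of the Schlafen family, by -0.27 (SE 0.05). Of 21 genes of antigen presentation 0 were higher and 7 lower (median -0.21, and -0.08 without Cast replicates 1, 5 and 6). In the strains' own tests 0 were higher and 12 lower in Cast (median -0.65), and 3 higher and 5 lower in PWK (median 0.02). Among the 7 was H2-Q4, a class I histocompatibility gene, with medians of 4.09 CPM in Cast, 3.065 CPM in PWK and 8.65 CPM in the 6 (difference -1.11, SE 0.17). Of 17 immunity-related and guanylate-binding GTPases, 7 were lower and 2 higher (median -0.16, and -0.42 without the same 3 libraries), Gbp6 (ENSMUSG00000079362) leading the lower side. For such polymorphic genes, reads of another haplotype may align less well, and this was not tested.

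Of 27 interferon-stimulated genes 6 were higher and 9 lower (median -0.19, and -0.43 without Cast replicates 1, 5 and 6). The median was -0.40 for Cast and 0.06 for PWK. Mx1 and Mx2, chosen after their values were seen, were on the higher side. They are antiviral GTPases of which many laboratory strains are known to carry defective alleles. Mx1 ran from 0.4795 to 4.21 CPM in the 14 libraries, and its strain means were at most 0.553 CPM in WSB, AJ, B6, 129 and NOD but 2.08 CPM in NZO (difference 2.26, SE 0.24). Mx2 ran from 0.811 to 8.21 CPM in the 14 libraries and from 0 to 1.13 CPM in the 47 (difference 2.74, SE 0.20), lowest in NZO, at a mean of 0.0698 CPM. The transcripts of Mx1 and Mx2 match at 95.3% over 843 bases, and their sum differed by 2.12 (SE 0.17).

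Markers of other cell types were read beside these results. Keratinocyte markers (9 tested) all passed as higher with a median of 1.98, but their sum was at most 11.6 CPM in all Cast libraries except replicate 8, with 467 CPM. In PWK it reached 307 and 266 CPM in its highest libraries, with a median of 4.12 CPM, and in the 47 it ran from 1.12 to 410 CPM. Without the 7 libraries with over 10 CPM of Krt14, none of the 9 was higher. Lymphocyte markers were higher in 14 of 17 cases (median 2.07), and in 2 without the 9 libraries with over 1 CPM of Cd79a. Their sum ran from 38.7 to 600 CPM in Cast (median 100.4), from 27.5 to 250 CPM in PWK (median 45.75) and from 10.02 to 471 CPM in the 47 (median 64.58). In WSB its median was 200 CPM. Hepatocyte markers were higher in 5 of 18 cases (median 1.13), and in 1 without Cast replicates 1 and 3 and WSB replicate 5, whose sums were over 5000 CPM. Brown fat markers were higher in 10 of 13 cases and lower in 1 (median 1.64). The median was 0.48 in the variance-stabilised values. It was 0.60, with 7 higher, with fat marker sums as covariates, but these markers make up the brown sum, so a fall was built in. Their sum had a median of 316 CPM in Cast, 267 CPM in PWK and 354 CPM in WSB, and 10 of the 13 were also higher in WSB than in the 5 classical strains. Cox8b, a cytochrome c oxidase subunit that muscle also expresses, was among them (difference 0.27, SE 0.06).

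**Figure D5:**
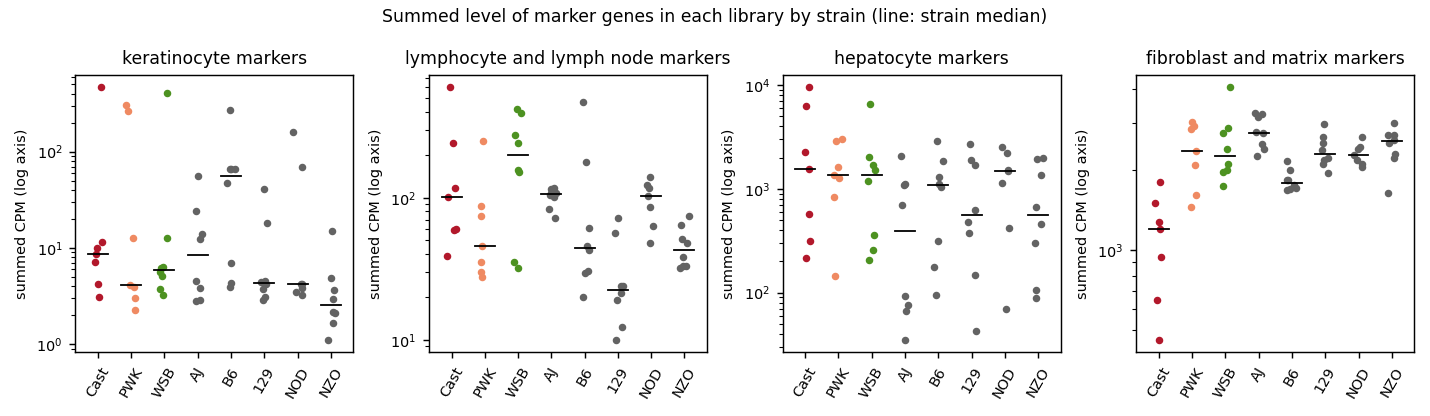
Summed CPM on a log axis of the markers of 4 cell types in each of 61 libraries by strain, with a line at the strain median. Single libraries of several strains are high in keratinocyte and lymphocyte markers, and the Cast libraries are the lowest group in fibroblast and matrix markers, at 460 to 1790 CPM against 1634 to 4075 CPM in the 6 strains.

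Among connective tissue and vessel genes the differences were larger in Cast. Of 17 fibroblast and matrix genes 0 were higher and 9 lower. In the strains' own tests 16 were lower in Cast, where 28.4% of all genes were, and 4 were higher in PWK, where 21.2% of all genes were, with medians of -1.05 for Cast and -0.02 for PWK. The joint median was -0.58, and -0.38 without Cast replicates 1, 5 and 6, and 6 of the 7 Cast libraries had a lower marker sum than any of the 47. Of 11 tendon genes 0 were higher and 6 lower, with medians of -1.12 for Cast and 0 for PWK. Chad, a cartilage and tendon matrix protein, was lower by -0.99 (SE 0.21) and passed at the strain level (adjusted p 0.0229), and Tnmd, tenomodulin, was lower by -0.84 (SE 0.17). Of 12 endothelial genes 0 were higher and 6 lower (median -0.13). Egfl7, Vwf and Pecam1, of the vessel wall, were lower by -0.50 (SE 0.06), -0.48 (SE 0.07) and -0.31 (SE 0.05). In smooth muscle and pericytes 4 of 11 genes were lower and 0 higher, with Lmod1, an actin nucleator of smooth muscle, at -1.05 (SE 0.10) and Abcc9, a subunit of potassium channels, at -0.33 (SE 0.04). The smooth muscle sum was 456 to 729 CPM in Cast, below all 47, and 764 to 915 CPM in PWK, within their range of 740 to 1006 CPM.

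Of 8 genes of neutrophils and mast cells 0 were higher and 5 lower (median -1.03), 3 of them at the strain level. The mast cell proteases Mcpt4, Tpsb2 and Cpa3, named after their values were seen, show the levels. Mcpt4 ran from 0.157 to 3.30 CPM in Cast, from 0.215 to 3.52 CPM in PWK and from 2.35 to 11.4 CPM in the 47, with 12 of the 14 libraries below all 47 (difference -2.08, SE 0.25). Tpsb2 was lower by -1.35 (SE 0.17) with 9 of the 14 libraries below all 47, and Cpa3 by -0.83 (SE 0.20). Among the neutrophil genes of the list, named on the same terms, S100a8 differed by 1.18 (adjusted p 0.0506) and S100a9 by 0.88 (adjusted p 0.144).

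Imprinted genes that act on growth were lower in 7 of 20 cases and higher in 2 (median -0.17), none at the strain level. Mest, expressed from the paternal allele, had medians of 2.36 CPM in Cast, 2.49 CPM in PWK and 5.25 CPM in the 6, and its WSB mean of 2.20 CPM was as low (difference -1.08, SE 0.20). Gnas, the stimulatory G protein subunit, was lower by -0.20 (SE 0.04), with both groups overlapping.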

How the data were processed

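The series holds 61 RNA libraries of skeletal muscle. Per the labels' protocols, libraries were made from polyadenylated RNA with the KAPA mRNA HyperPrep kit. The authors deposited estimated counts per gene (80.4% of the values whole, rounded here to whole numbers) and a second table of variance-stabilised values on a log2 scale. The submitters' processing notes name DESeq2 and the build GRCm38. No aligner or counter is given in the sources used here. Strains were taken from the sample titles. Of 19462 genes, 16682 passed edgeR's filter on low counts.

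One model with strain as its only factor was fitted to all 61 libraries (edgeR 4.0.16, TMM scaling, quasi-likelihood F test, 53 residual degrees of freedom, R 4.3.3). Contrasts weighted strains equally on the log scale, so a log2 difference need not match the ratio of mean CPM values. The p-values were adjusted by Benjamini-Hochberg over all genes tested, and the threshold was 0.05. The SE was taken from the F statistic, as the size of the log2 difference over the root of F. The strain-level test was limma 3.58.1 on 8 strain means of log2 CPM. CPM gives no level per gene length, so levels were compared within a gene only.

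Genes were named by rule: shared direction, all 3 tests passed, a mean of at least 5 CPM, no predicted or pseudogene symbol, no ribosomal protein gene and no near-identical copy. Of these, the 12 highest and 12 lowest by the smaller difference were named, up to 3 per direction in each list, and 3 genes of opposite sign. Copies were searched with BLAST+ 2.17.0 among GENCODE M21 transcripts (at least 95% identity, 200 bases and 50% of the shorter transcript). The members and the 44 lists were chosen with earlier results of these data known. The fit was tested on simulated data. Alternatives were another scaling, test or filter, a fit of 14 against 47 libraries without strain terms, covariates, a replicate block and leaving out libraries or strains. Libraries left out for high Mt1, Cd79a, Krt14 or liver genes were chosen after seeing the data.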

Additional observations from a re-analysis of the deposited data

Results flagged for a closer look

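Of 84 sets of 7 libraries examined for a value far from the others, 10 had one. Chance would give about 1 in 20 for independent sets of normally distributed values. These sets share libraries, and Dmkn and Krt10 are part of the keratinocyte sum, so that rate is only a rough guide. Cast replicate 8 held 122 CPM of Ucp1 against at most 52.4 CPM in the other Cast libraries, 61.9 CPM of Dmkn against at most 1.00 CPM, 163.5 CPM of Krt10 against at most 1.48 CPM, and a keratinocyte marker sum of 467 CPM against at most 11.6 CPM. In PWK, Slc1a1 reached 51.8 CPM in replicate 9, Sfi1 54.1 CPM in replicate 1 and Cbr2 88.0 CPM in replicate 4, against at most 32.9, 38.3 and 64.1 CPM in the others. The brown adipocyte marker sum was 348 CPM in PWK replicate 2. The lymphocyte marker sum was 600.4 CPM in Cast replicate 7 and 250 CPM in PWK replicate 1.

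Cast and PWK differed from each other in 10 of the 27 genes named by rank or for opposite signs (edgeR quasi-likelihood test, adjusted p under 0.05). In the higher genes, Cast minus PWK was -0.94 for Slc1a1, 1.74 for Cidea and -0.84 for Ppp1r1a. In the lower genes it was 3.31 for Cntnap2, 1.80 for Kcng4, -1.28 for Lrp2bp and 0.58 for Firre. For the genes of opposite sign it was -9.99 for Tmem132d, -5.25 for Cbr2 and 4.06 for Napb.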

How the results depend on the processing

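For the result shared direction in Cast and PWK, the 7782 genes became 4585 with a mean of at least 5 CPM required, 801 in the strain-level test and 1742 at 1 log2 unit or more. For Cast and PWK against the 6 domesticus-type strains without regard to the shared direction, 9793 became 5996, 801 and 1906. For shared direction and both own tests, 3392 became 2127 under the CPM filter, in which fewer genes were tested, and 1028 at 1 log2 unit or more. Leaving out single Cast or PWK libraries or B6 replicate 5 gave 7369 to 7897, 9370 to 10080 and 3168 to 3438 genes. The other alternatives for these 3 counts stayed within 1.5 times. The replicate numbers did not pair Cast with PWK libraries: correlations of 5 same-numbered pairs ran from -0.149 to 0.0691. Over all strains, the median correlation between libraries of different strains was 0.0677 with the same number and -0.015 with another number. A replicate block gave 7640 calls of shared direction. The difference of Dmkn was -0.06 and that of Krt10 -0.18 with hepatocyte, lymphocyte and keratinocyte sums as covariates. Both genes are part of the keratinocyte sum, so that loss was built in. Their differences were -0.96 and -0.88 without libraries high in keratinocyte markers. Krt10 ran from -0.38 without Cast replicate 8 to 2.04 without Cast replicate 6. Amd2 was at -0.01 with its copies. Of 3063 values for the genes named by rule, these first 5 turned direction and 61 lost the threshold, 42 of the 61 in the strain-level test. In the deposited variance-stabilised values differences of low genes were smaller, with Cntnap2 at -2.54. The cause of these changes was not tested.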
